A study of Mus musculus with 9 samples.

Results

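The SIRP receptors are described here together with their ligand, their phosphatases and the genes that act beside them at the surface of phagocytes. The 10 genes were chosen by name, with earlier results of these data known, so counts among them are not independent of the data. Chosen were the receptors Sirpa, Sirpb1a, Sirpb1b and Sirpb1c, the ligand Cd47, the phosphatases Ptpn6 and Ptpn11, the adaptor Tyrobp, and the pair Calr and Lrp1. They are 10 of the 45777 genes listed in the tables, and each was found by the mouse gene ID that carries its symbol. Bulk RNA was sequenced from CD11b+ cells of the mouse liver, 3 samples in each of 3 groups. All 9 samples came from animals given APAP (acetaminophen, a drug that injures the liver at high dose) into the peritoneum, and livers were taken 48 h later. The PBS group received buffer. The HEK-EV group received vesicles labelled as SIRP-EV from HEK cells, a line from embryonic human kidney, and the MSC-EV group received vesicles labelled as SIRP-EV from MSC (mesenchymal stem or stromal cells), both into a vein 8 h after APAP. The labels do not spell out SIRP, and they give no strain, age, sex or dose. No group without APAP and no vesicle without the SIRP label was analysed here, so each vesicle group is compared with buffer or with the other vesicle. Nothing in the labels says that samples of a group came from separate animals, so p-values measure only the spread between these samples, which may be technical.

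SIRP-alpha, the protein of Sirpa, is an inhibitory receptor of macrophages, monocytes and neutrophils. When it binds CD47 on another cell, tyrosines in its tail are phosphorylated and dock the phosphatases SHP-1 (Ptpn6) and SHP-2 (Ptpn11), which restrains phagocytosis. The SIRP-beta receptors, encoded by the Sirpb1 genes, have no such tail and instead signal through the activating adaptor DAP12 (Tyrobp), while calreticulin (Calr) on a target cell and LRP1 on the phagocyte form a pair that favours uptake.

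All 10 genes were measured in all 9 samples, and all passed the filter of at least 1 TPM in at least 3 samples that kept 13820 genes for testing. TPM give each gene's share of the transcripts of a sample, corrected for length, so genes can be ranked on it. Over the 9 samples the mean level ran from Tyrobp at 2686 TPM through Calr at 1636, Sirpa at 781, Ptpn6 at 672, Lrp1 at 404, Sirpb1c at 281.0, Sirpb1b at 212, Sirpb1a at 134 and Cd47 at 89.0 to Ptpn11 at 46.9 TPM. Neighbours in this order did not overlap between Tyrobp and Calr, Calr and Sirpa, Ptpn6 and Lrp1, and Cd47 and Ptpn11. The ranges of Sirpa and Ptpn6 overlapped, with Sirpa the higher in 8 of 9 samples, and so did those of Lrp1 and Sirpb1c, Sirpb1c and Sirpb1b, Sirpb1b and Sirpb1a, and Sirpb1a and Cd47. Within every sample, however, Sirpb1c was above Sirpb1b, Sirpb1b above Sirpb1a, and Sirpb1a above Cd47.

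Sample checks concern the whole series. Itgam, which encodes the CD11b used for the sort, lay between 196 and 434 TPM, and the pan-leukocyte gene Ptprc between 418 and 669 TPM, while of the 8 lymphocyte genes Cd3e, Cd3g and Klrb1c stayed under 1 TPM in every sample and Cd79a (1.90 to 6.62 TPM) and Nkg7 (1.54 to 4.26 TPM) were above it in all 9. Nkg7 was called higher in MSC-EV, at an adjusted p of 0.0424 against PBS and 0.0468 against HEK-EV. Depth in reads is unknown, since the tables hold no counts. A relative measure, the ratio of coverage to FPKM found most often among a sample's genes, was 5.28 to 6.32 in PBS, 6.25 to 6.47 in HEK-EV and 6.59 to 6.84 in MSC-EV, and 13130 to 13633 genes reached 1 TPM per sample. Transcripts of pancreatic acinar cells, not a cell type of the liver, summed to 11.5 to 14.1 TPM in 5 samples but reached 33.9 and 966 TPM in HEK-EV 1 and 2 and 130 and 2661 TPM in MSC-EV 1 and 3.

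The start regions of the 3 Sirpb1 genes and of Ptpn6 are printed first because these are the members that passed the test between groups. The Sirpb1 genes lie in one cluster on mouse chromosome 3, all on the minus strand: Sirpb1a (gene ID 320832) at chr3:15371661-15426522, Sirpb1b (668101) at chr3:15495754-15575067 and Sirpb1c (100038947) at chr3:15795147-15848530 in the files' mm10 coordinates. Ptpn6 (15170) lies at chr6:124720707-124738709, also on the minus strand. Each window is the 300 bases that the RefSeq promoter table gives for the gene on build GRCm38.p6, made as 250 bases before and 50 after a start. For the 3 Sirpb1 genes that start lies inside the gene as the files delimit it, at a start site that the table does not name. Their windows therefore hold more than 50 bases of the gene. The windows are chr3:15426378-15426677 for Sirpb1a, chr3:15575016-15575315 for Sirpb1b, chr3:15848438-15848737 for Sirpb1c and chr6:124738660-124738959 for Ptpn6. All are written 5′ to 3′ on the minus strand, and capitals mark GGAAGT or its reverse complement ACTTCC, an ETS-type core of the kind bound by the myeloid factor PU.1.
Sirpb1a: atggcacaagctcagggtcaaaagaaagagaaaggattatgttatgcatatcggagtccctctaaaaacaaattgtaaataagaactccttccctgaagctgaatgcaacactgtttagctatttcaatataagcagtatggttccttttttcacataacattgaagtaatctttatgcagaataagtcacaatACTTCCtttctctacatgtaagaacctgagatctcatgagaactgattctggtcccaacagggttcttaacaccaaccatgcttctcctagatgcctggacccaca
Sirpb1b: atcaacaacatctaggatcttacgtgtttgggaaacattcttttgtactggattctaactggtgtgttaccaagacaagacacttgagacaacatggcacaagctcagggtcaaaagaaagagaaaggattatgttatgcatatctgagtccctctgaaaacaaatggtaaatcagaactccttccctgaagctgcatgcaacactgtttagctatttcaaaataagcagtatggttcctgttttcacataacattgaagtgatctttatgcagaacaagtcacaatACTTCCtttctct
Sirpb1c: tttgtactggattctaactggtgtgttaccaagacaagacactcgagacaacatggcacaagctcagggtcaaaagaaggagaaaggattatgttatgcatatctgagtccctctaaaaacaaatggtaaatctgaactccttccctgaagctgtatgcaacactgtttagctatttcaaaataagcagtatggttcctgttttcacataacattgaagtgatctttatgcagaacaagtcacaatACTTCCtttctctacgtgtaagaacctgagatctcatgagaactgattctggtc
Ptpn6: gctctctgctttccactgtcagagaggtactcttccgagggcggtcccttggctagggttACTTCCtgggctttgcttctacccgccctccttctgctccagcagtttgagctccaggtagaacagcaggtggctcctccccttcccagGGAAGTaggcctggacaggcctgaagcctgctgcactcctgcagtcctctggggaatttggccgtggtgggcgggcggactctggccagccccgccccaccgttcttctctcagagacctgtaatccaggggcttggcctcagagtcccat
Each Sirpb1 window held 1 match and the Ptpn6 window held 2. Where the windows overlap in alignment, Sirpb1a and Sirpb1b were 95.7% identical over 207 bases, Sirpb1a and Sirpb1c 95.6% over 248, and Sirpb1b and Sirpb1c 98.1% over 259. The 3 Sirpb1 matches therefore come from near copies and do not count separately. In all, 7809 of 32851 RefSeq windows of this length (23.8%) held the motif on either strand, and the windows of Ptpn11, Calr, Lrp1 and Cd47 held none. The windows also differed in base composition: the Sirpb1 windows had 38.7%, 38% and 39% G and C and 1 to 2 CpG, Ptpn6 had 61.7% and 8 CpG, and Cd47 had 74% and 35 CpG, beside medians of 52.7% and 7 CpG over all windows. The motif and the window were chosen after the sequences had been looked at, and a match is a description of letters, not of a bound site.

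The same likeness runs through the Sirpb1 transcripts, and it bears on how far their values can be told apart. Along the aligned longest coding transcripts, Sirpb1a and Sirpb1b were 97.7% identical, Sirpb1a and Sirpb1c 97.3%, and Sirpb1b and Sirpb1c 98.3%, whereas Sirpa was 71.4% to 71.7% identical to the 3. Of all runs of 50 bases in their coding transcripts, 43.8% of Sirpb1a, 66.9% of Sirpb1b and 59.0% of Sirpb1c also occur in another gene, in each case in the other Sirpb1 genes. Sirpa, Ptpn11, Lrp1 and Tyrobp shared none, Calr 0.47% and Cd47 0.73%, and Ptpn6 shared 5.31% with Gm20531. The separate values of the 3 Sirpb1 genes are therefore uncertain, and their sum is given beside them.

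The first comparison asks how the genes stood in cells of MSC-EV animals against buffer. Transcripts of 2 SIRP-beta receptors and of a phosphatase were lower, and Sirpa was not called. Sirpb1c was at 0.61 and Sirpb1b at 0.67 of its level in PBS, and Ptpn6, the phosphatase SHP-1, was at 0.76. Sirpa, the inhibitory receptor, was at 1.06. With limma on log2(TPM + 1) and Benjamini-Hochberg adjustment over all genes, 3 of the 10 members were called, all lower, against a background of 5.11% of all genes called in either direction, 3.25% called lower and 1.86% called higher.

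Sirpa (gene ID 19261, chr2:129591042-129632228, plus strand) was at 768, 783 and 703 TPM in PBS 1 to 3, at 835, 771 and 775 TPM in HEK-EV 1 to 3, and at 804, 778 and 807 TPM in MSC-EV 1 to 3. The 3 ranges overlapped, and the lowest value was that of PBS 3. The difference in log2(TPM + 1) was 0.085 for MSC-EV against PBS (SE 0.061, 95% interval -0.051 to 0.22, adjusted p = 0.449).

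Sirpb1a was at 124, 163 and 145 TPM in PBS, at 175, 146 and 138 TPM in HEK-EV, and at 97.3, 105 and 110.1 TPM in MSC-EV. Every MSC-EV sample lay below every other sample. Sirpb1a was nevertheless not called against PBS, at a log2 difference of -0.46 (SE 0.11, 95% interval -0.71 to -0.20, adjusted p = 0.0521). Sirpb1b was at 176, 259 and 262 TPM in PBS, at 264, 233 and 258 TPM in HEK-EV, and at 147, 154 and 156 TPM in MSC-EV. Again the MSC-EV samples were the 3 lowest, and PBS 1 stood between them and the remaining 5. The difference was -0.59 (SE 0.13, 95% interval -0.89 to -0.28, adjusted p = 0.0424).

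Sirpb1c was at 251, 356 and 350.0 TPM in PBS, at 341, 305 and 345 TPM in HEK-EV, and at 179.6, 195 and 207 TPM in MSC-EV. The order was that of Sirpb1b, with PBS 1 the lowest outside MSC-EV and no overlap. Its difference of -0.70 (SE 0.13, 95% interval -0.99 to -0.42, adjusted p = 0.0251) was the largest of the 10. Summed, the 3 Sirpb1 genes stood at 552, 778 and 757 TPM in PBS, at 780.0, 684 and 740.3 TPM in HEK-EV and at 424, 454 and 473 TPM in MSC-EV. Tested as 1 feature in place of 3, the sum was lower in MSC-EV than in PBS by a log2 difference of -0.61 (SE 0.12, adjusted p = 0.03).

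**Figure D1:**
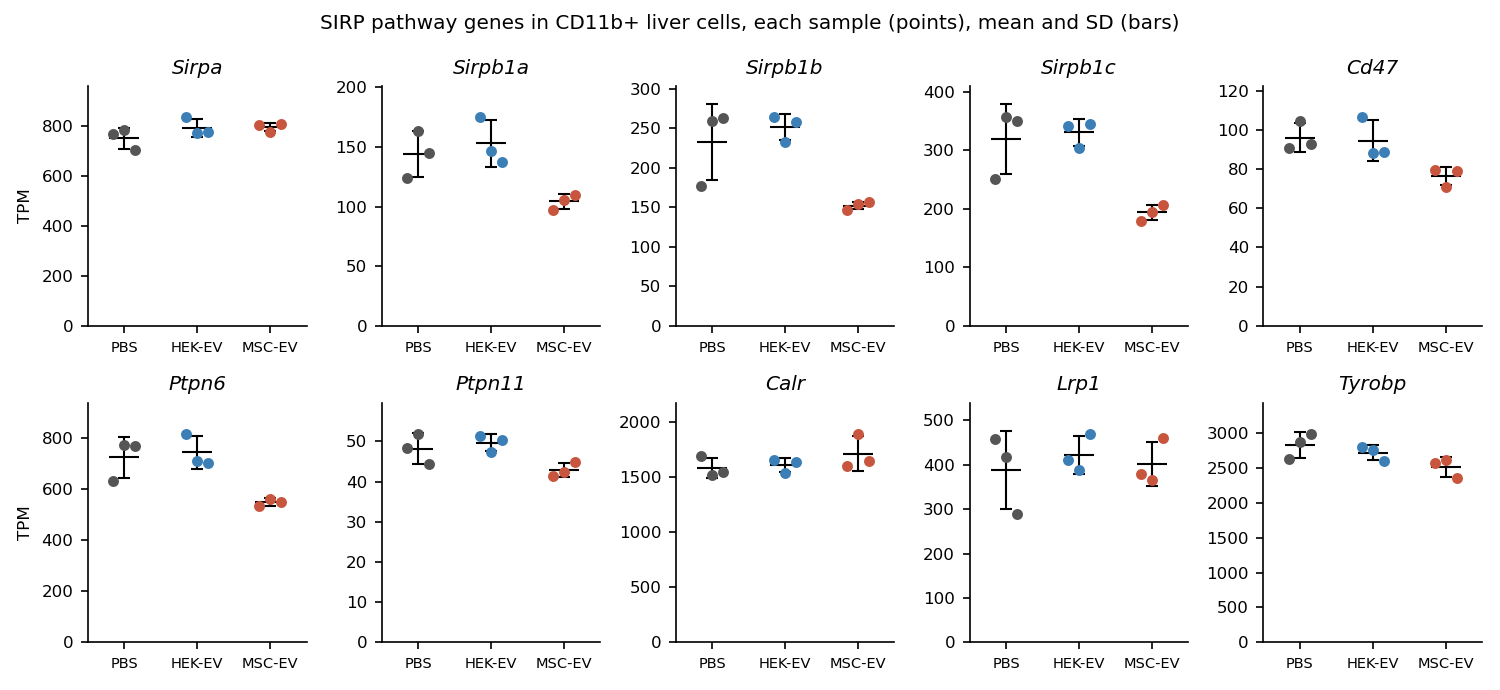
TPM of each of the 10 genes (vertical axes, each starting at 0) by group, with 1 point per sample and bars for the mean and SD of 3 samples. The 3 MSC-EV points lie below all others for Sirpb1a, Sirpb1b, Sirpb1c, Cd47 and Ptpn6, while those of Sirpa and Lrp1 overlap with the others, as do those of Calr apart from MSC-EV 2 at 1893 TPM.

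Cd47, the ligand of SIRP-alpha (gene ID 16423, chr16:49851328-49912503, plus strand), was at 90.8, 105 and 92.7 TPM in PBS, at 106, 88.2 and 88.9 TPM in HEK-EV, and at 79.3, 71.0 and 79.2 TPM in MSC-EV. No MSC-EV sample reached the others, yet the difference against PBS of -0.32 (SE 0.089, 95% interval -0.52 to -0.12) did not pass, at an adjusted p of 0.068. The gene overlaps Gm4633 on the other strand, and whether reads were counted by strand is not given in the sources used here.

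Ptpn6 was at 632, 773 and 767 TPM in PBS, at 816, 710.3 and 702 TPM in HEK-EV, and at 533, 563 and 550.3 TPM in MSC-EV. As with Sirpb1b and Sirpb1c, PBS 1 was the lowest of the other 6 samples and still above all of MSC-EV. Ptpn6 was lower by a log2 difference of -0.39 (SE 0.090, 95% interval -0.60 to -0.19, adjusted p = 0.0405). Ptpn11, the phosphatase SHP-2 (gene ID 19247, chr5:121130533-121191397, minus strand), was at 48.3, 51.9 and 44.3 TPM in PBS, at 51.4, 47.3 and 50.4 TPM in HEK-EV, and at 41.4, 42.4 and 44.9 TPM in MSC-EV. PBS 3 lay within the MSC-EV range, and the difference of -0.16 against PBS was not called (SE 0.070, adjusted p = 0.207).

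Tyrobp, the DAP12 adaptor through which SIRP-beta signals (gene ID 22177, chr7:30413782-30417582, plus strand), was the most abundant member, at 2621, 2875 and 2987 TPM in PBS, at 2797, 2759 and 2601 TPM in HEK-EV, and at 2571, 2611 and 2353 TPM in MSC-EV. MSC-EV lay just below PBS without overlap, and the difference of -0.17 (SE 0.075, adjusted p = 0.211) did not pass. Calr, a chaperone of the endoplasmic reticulum that can reach the cell surface (gene ID 12317, chr8:84842088-84846931, minus strand), was at 1689, 1517 and 1546 TPM in PBS, at 1656, 1540 and 1635 TPM in HEK-EV, and at 1597, 1893 and 1648 TPM in MSC-EV. Only MSC-EV 2 exceeded the range of the other groups, and the difference was 0.11 (SE 0.079, adjusted p = 0.455). Lrp1, a large endocytic receptor (gene ID 16971, chr10:127538157-127621148, minus strand, overlapping Gm16217 and Gm51820 on the other strand), was at 459, 417.5 and 289 TPM in PBS, at 409.8, 388 and 469.9 TPM in HEK-EV, and at 380.2, 366 and 459.5 TPM in MSC-EV. The groups overlapped, PBS 3 was the lowest of all, and the difference of 0.069 had the largest standard error of the 10 (SE 0.16, adjusted p = 0.846).

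Over the 10 members the median difference between MSC-EV and PBS was -0.25, beside 0.010 over all 13820 genes tested. In 6 members, the 3 Sirpb1 genes, Cd47, Ptpn6 and Tyrobp, all MSC-EV samples were below all PBS samples, where 26.0% of all genes showed no overlap in either direction. Of the genes called, 36.4% were higher in MSC-EV, and that share was 63.1% on FPKM and 47.2% with median-of-ratios scaling. Leaving out single samples ended calls. Sirpb1c lost its call without PBS 2 (adjusted p = 0.116), PBS 3 (0.0913), MSC-EV 1 (0.108) or MSC-EV 2 (0.0737); Sirpb1b kept it only without PBS 1, ranging from 0.0548 to 0.175 otherwise; and Ptpn6 kept it only without PBS 1 or HEK-EV 1, ranging from 0.0511 to 0.171 otherwise. Without PBS 1, 5 members were called, Cd47 (adjusted p = 0.0465) and Sirpb1a (0.0127) among them. In that fit 1861 genes of the whole series were called, beside 706 with all samples. Without HEK-EV 1, where 599 genes were called, Cd47 and Sirpb1a passed at 0.048 and 0.044. On FPKM and with median-of-ratios or quantile scaling only Sirpb1c passed, where 555, 610 and 701 genes of the series were called. Without a filter or with only the 6 samples compared no member did, where 361 and 77 genes were called. With the acinar split as a term, chosen after seeing the data, no member passed, and 21 genes were called. The differences in that fit were -0.66 for Sirpb1c, -0.56 for Sirpb1b and -0.41 for Ptpn6. PBS 1 to 3 all lie on the low side of the split, so the term is partly confounded with the comparison. The part of acinar transcripts in the differences was not tested. Relative depth was higher in all MSC-EV samples than in any other. With it as a term the differences were larger for the called members, at -0.99 for Sirpb1b and -1.05 for Sirpb1c (adjusted p = 0.0075 for both). They were also larger for Sirpb1a at -0.65 (0.0488), Ptpn6 at -0.60 (0.0219) and Lrp1 at 0.51, which was not called (0.13). Cd47 stayed at -0.32 (0.192), and the difference of Ptpn11 was smaller, at -0.098 (0.588).

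The second comparison asks how the genes stood in HEK-EV against PBS. No member was called, and none was separated between the groups. The 10 log2 differences lay between -0.055 for Tyrobp and 0.14 for Lrp1, all at an adjusted p of 0.999, and their median was 0.056 beside 0.028 over all genes. The intervals were about as wide as in the other comparisons: Sirpa differed by 0.080 (95% interval -0.056 to 0.22), Sirpb1c by 0.065 (-0.22 to 0.35), Cd47 by -0.026 (-0.23 to 0.17) and Ptpn6 by 0.040 (-0.16 to 0.24). The sum of the Sirpb1 genes differed by 0.093 (SE 0.12, adjusted p = 0.999).

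The background in this comparison was 0% of genes called by limma, with 495 of 13820 genes at an unadjusted p under 0.05 and a smallest adjusted p of 0.944. No member was called in any of 20 alternatives. In 0 of 10 members the 3 HEK-EV samples lay wholly above or below the 3 PBS samples, where 7.81% of all genes did so.

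The third comparison sets the 2 vesicle groups against each other. Since both effects are taken against the same PBS samples, this difference is also the difference between the 2 effects, and the comparisons with PBS are not independent of each other. All 3 Sirpb1 genes and Ptpn6 were lower in MSC-EV than in HEK-EV. Sirpb1c was at 0.59, Sirpb1b at 0.61, Sirpb1a at 0.69 and Ptpn6 at 0.74 of the HEK-EV level, whereas Sirpa stood at 1.004. With limma, 4 of 10 members were called, all lower, against 5.91% of all genes called in either direction, 4.40% called lower and 1.51% called higher.

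Sirpb1a differed by -0.54 (SE 0.11, 95% interval -0.80 to -0.29, adjusted p = 0.03). For Sirpb1b the difference was -0.72 (SE 0.13, 95% interval -1.02 to -0.42, adjusted p = 0.0248), and for Sirpb1c it was -0.77 (SE 0.13, 95% interval -1.05 to -0.48, adjusted p = 0.0207). The summed Sirpb1 level differed by -0.70 (SE 0.12, adjusted p = 0.0217). Ptpn6 was lower by a log2 difference of -0.43 (SE 0.090, 95% interval -0.64 to -0.23, adjusted p = 0.0292).

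**Figure D2:**
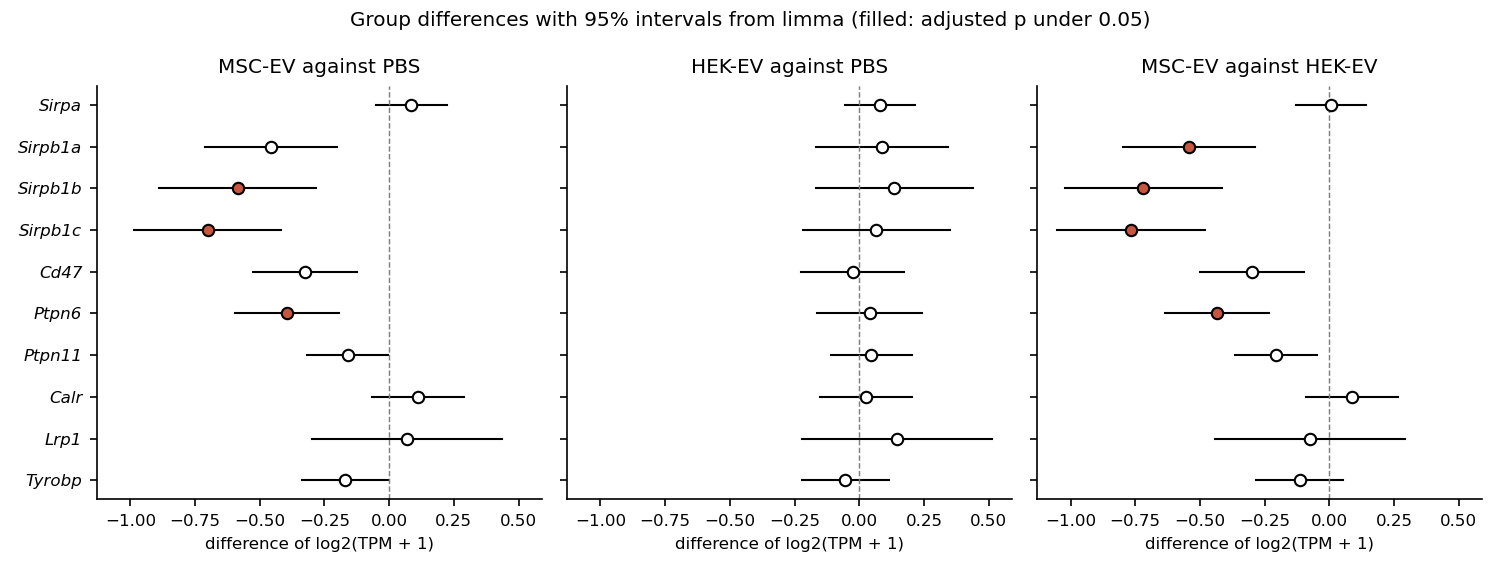
Differences of log2(TPM + 1) between groups (horizontal axes) for the 10 genes in the 3 comparisons, with 95% intervals from limma on 3 samples a group and filled points where the adjusted p is under 0.05. Sirpb1b, Sirpb1c and Ptpn6 are filled in both comparisons of MSC-EV, Sirpb1a only against HEK-EV, and no gene is filled for HEK-EV against PBS.

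Sirpa differed by 0.0056 between the vesicle groups (95% interval -0.13 to 0.14, adjusted p = 0.966). Cd47 was separated between the groups but not called, at -0.30 (SE 0.089, adjusted p = 0.0807). Ptpn11 was separated as well, at -0.21 (SE 0.070, adjusted p = 0.112). Tyrobp at -0.12, Calr at 0.086 and Lrp1 at -0.075 had overlapping groups and adjusted p-values of 0.4, 0.571 and 0.829.

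The median over the 10 members was -0.25, beside -0.017 over all genes, and 6 members (the 3 Sirpb1 genes, Cd47, Ptpn6 and Ptpn11) were wholly below HEK-EV, where 30.1% of all genes showed no overlap. Of the genes called, 25.6% were higher in MSC-EV, and that share was 59.5% on FPKM, 46.3% with median-of-ratios scaling and 45.5% with quantile normalization. All 4 calls were lost without HEK-EV 1, HEK-EV 2, HEK-EV 3, MSC-EV 1 or MSC-EV 2, at adjusted p-values of 0.0531 to 0.0933 for Sirpb1c, 0.056 to 0.101 for Sirpb1b, 0.0597 to 0.115 for Sirpb1a and 0.0635 to 0.111 for Ptpn6, and Ptpn6 was also lost without MSC-EV 3 (0.0567). On FPKM or without a filter Sirpb1c alone passed, with median-of-ratios scaling Sirpb1b (0.0479) and Sirpb1c (0.0389) passed, and with quantile normalization the 3 Sirpb1 genes passed and Ptpn6 (0.064) did not. With the acinar split as a term all 4 remained called, at 0.035 to 0.0468.

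Ratios of 2 genes within a sample do not depend on how the library was scaled. The Sirpb1 sum relative to Sirpa was 0.719, 0.994 and 1.08 in PBS 1 to 3, 0.934, 0.887 and 0.956 in HEK-EV 1 to 3, and 0.527, 0.584 and 0.586 in MSC-EV 1 to 3. All MSC-EV samples were below all others, so that SIRP-beta transcripts were near parity with Sirpa in HEK-EV and in PBS 2 and 3, and well under it in MSC-EV. The means were 0.930 ± 0.19 in PBS, 0.925 ± 0.035 in HEK-EV and 0.565 ± 0.033 in MSC-EV (SD, 3 samples each). Both comparisons of MSC-EV gave an exact two-sided permutation p of 0.1, the smallest that 3 samples against 3 allow, and 0.225 after adjustment over the 18 ratio comparisons, so no ratio could pass the threshold.

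Cd47 relative to Sirpa, ligand to receptor, was 0.118, 0.134 and 0.132 in PBS, 0.127, 0.114 and 0.115 in HEK-EV, and 0.0987, 0.0912 and 0.0981 in MSC-EV. The MSC-EV samples were again the lowest against both groups. Ptpn6 relative to Ptpn11 was 13.1, 14.9 and 17.3 in PBS, 15.9, 15.01 and 13.95 in HEK-EV, and 12.9, 13.3 and 12.3 in MSC-EV. It was below HEK-EV in all samples but overlapped with PBS. Tyrobp relative to Sirpa was 3.78 ± 0.43 in PBS, 3.43 ± 0.13 in HEK-EV and 3.16 ± 0.22 in MSC-EV (SD), without overlap against PBS only.

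Sirpa relative to Itgam went the other way, at 2.66, 2.42 and 1.87 in PBS, 2.46, 2.25 and 1.78 in HEK-EV, and 4.09, 3.31 and 3.17 in MSC-EV. All MSC-EV samples were above all others. Itgam itself was at 330.0 ± 44.3 TPM in PBS, 372 ± 54.1 TPM in HEK-EV and 229 ± 29.6 TPM in MSC-EV (SD). Calr relative to Lrp1 overlapped in every comparison, with means of 4.22 ± 0.98, 3.83 ± 0.30 and 4.32 ± 0.80 (SD).

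**Figure D3:**
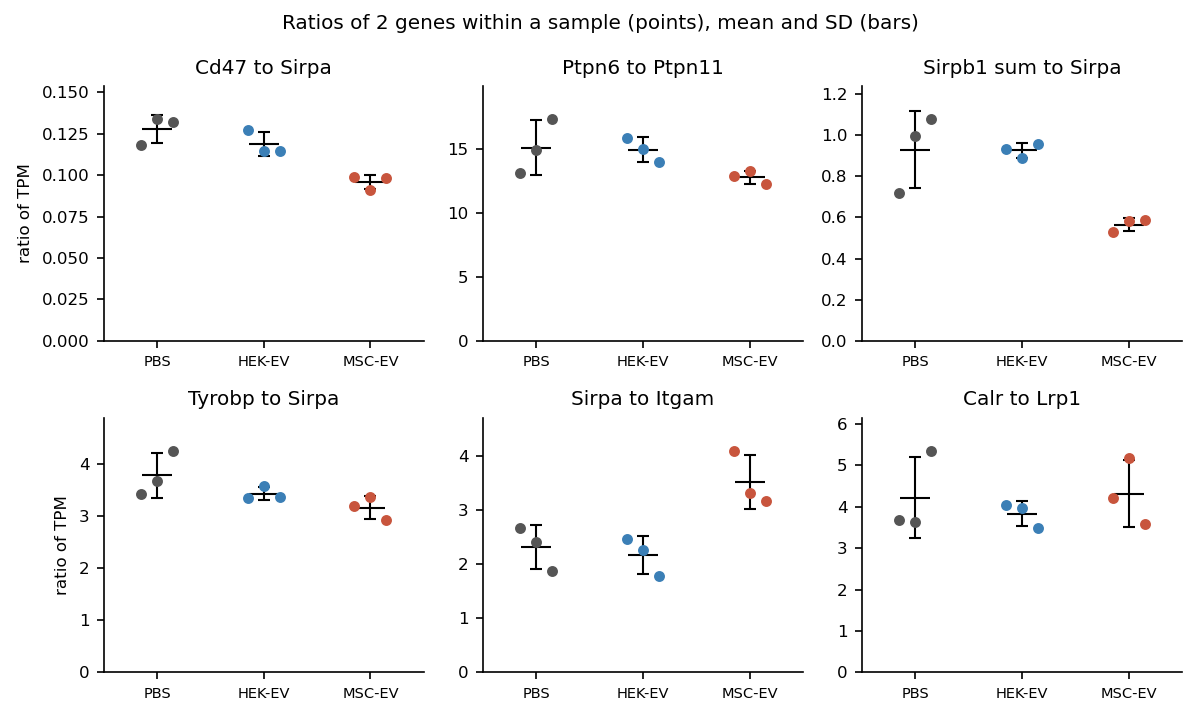
Ratio of the TPM of 2 genes in the same sample (vertical axes, starting at 0) in the 3 groups, with 1 point per sample and bars for the mean and SD of 3 samples. The Sirpb1 sum to Sirpa lies at 0.527 to 0.586 in MSC-EV and at 0.719 or more elsewhere, and Sirpa to Itgam lies at 3.17 or more in MSC-EV and at 2.66 or less elsewhere.

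Markers of several cell types moved with these results. The summed level of 6 genes of Ly6C-high monocytes was 4297 to 7979 TPM in PBS, 5318 to 7191 TPM in HEK-EV and 2376 to 3409 TPM in MSC-EV. Of these 6 genes 3 were called lower in each comparison of MSC-EV, Vcan and Chil3 in both, where 3.25% of all genes were called lower against PBS and 4.40% against HEK-EV. No gene of the series was called against HEK-EV without HEK-EV 2, MSC-EV 1 or MSC-EV 2, these markers included. The lowest sum outside MSC-EV was that of PBS 1, the sample that was also lowest outside MSC-EV for Sirpb1a, Sirpb1b, Sirpb1c and Ptpn6. In bulk samples, fewer cells of a type and less RNA per cell cannot be told apart, and the part of the monocyte transcripts in the differences of Sirpb1a, Sirpb1b, Sirpb1c and Ptpn6 was not tested.

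The 9 neutrophil genes summed to 3035 to 5614 TPM in PBS, 5032 to 6879 TPM in HEK-EV and 2969 to 3774 TPM in MSC-EV, below HEK-EV but overlapping with PBS. S100a8 and S100a9 made up most of that sum. Gene by gene, 6 of 9 were lower in MSC-EV by sign in both comparisons, with medians of -0.17 against PBS and -0.59 against HEK-EV. In either direction, 3 and 8 of the 9 did not overlap (background 26.0% and 30.1%). The 3 against PBS were Ltf, Ngp and Camp, all higher in MSC-EV. Against HEK-EV, Ltf and Camp were higher, Ngp overlapped and the other 6 were lower. Csf3r was called lower against HEK-EV (-0.35, adjusted p = 0.0402), while Ltf was called higher in MSC-EV (adjusted p = 0.0348 against PBS and 0.0205 against HEK-EV), from 2.88 to 2.99 TPM in PBS to 4.76 to 7.43 TPM in MSC-EV. The 6 Kupffer cell genes summed to 2540 to 3027 TPM in PBS, 1714 to 3600 TPM in HEK-EV and 1381 to 2453 TPM in MSC-EV, and none was called. By sign all 6 were lower in MSC-EV in both comparisons, with medians of -0.81 against PBS and -0.59 against HEK-EV. Of these genes 2 and 0 did not overlap (background 26.0% and 30.1%). The 8 hepatocyte genes summed to 400.3 to 473 TPM in PBS, 335 to 493 TPM in HEK-EV and 673 to 755 TPM in MSC-EV, and 3 were called higher against PBS (background 1.86%) and 5 against HEK-EV (1.51%). The biliary sum was 740.4 to 1711, 897 to 1184 and 1778 to 2367 TPM, but nearly all of it was Spp1 (732 to 2340 TPM), which macrophages also express. The other 5 biliary genes lay between 0.345 and 12.3 TPM, with Krt19, Epcam and Sox9 called higher in both comparisons of MSC-EV (background 1.86% and 1.51%). The platelet sum of 136 to 199.6, 131 to 189 and 255 to 351 TPM was nearly all Pf4. Pf4 was called higher in MSC-EV, by 0.83 against PBS (adjusted p = 0.0348) and 0.86 against HEK-EV (0.0292), beside the background of 1.86% and 1.51%. Itga2b was at 0.766 to 1.16 TPM in PBS and 0.378 to 0.675 TPM in MSC-EV, and Gp9 and Gp1bb stayed under 1 TPM. The 7 myeloid genes summed to 18290 to 23670 TPM over the 9 samples, with overlap between all groups, and most of that sum was Lyz2 (13300 to 18700 TPM). Gene by gene, all 7 had a negative difference in MSC-EV against PBS, 4 of them without overlap (background 26.0%) and Ptprc called (5.11%), and 6 of 7 had one against HEK-EV, 5 without overlap in either direction (30.1%), with Ptprc and Itgam called (5.91%). The dendritic cell genes summed to 94.6 to 127 TPM in PBS, 79.2 to 111 in HEK-EV and 127 to 165 in MSC-EV, most of it Cd209a, and none was called, with 4 higher and 3 lower by sign in both comparisons. The 7 endothelial genes summed to 274 to 341, 186 to 397 and 115 to 230.2 TPM, and none was called. By sign all 7 were lower in MSC-EV in both comparisons, with medians of -0.80 and -0.72, and 5 and 1 did not overlap (background 26.0% and 30.1%). The lymphocyte, stellate and erythroid lists summed to at most 19.1 TPM in any sample. The part of these cell types in the members' differences was not tested.

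**Figure D4:**
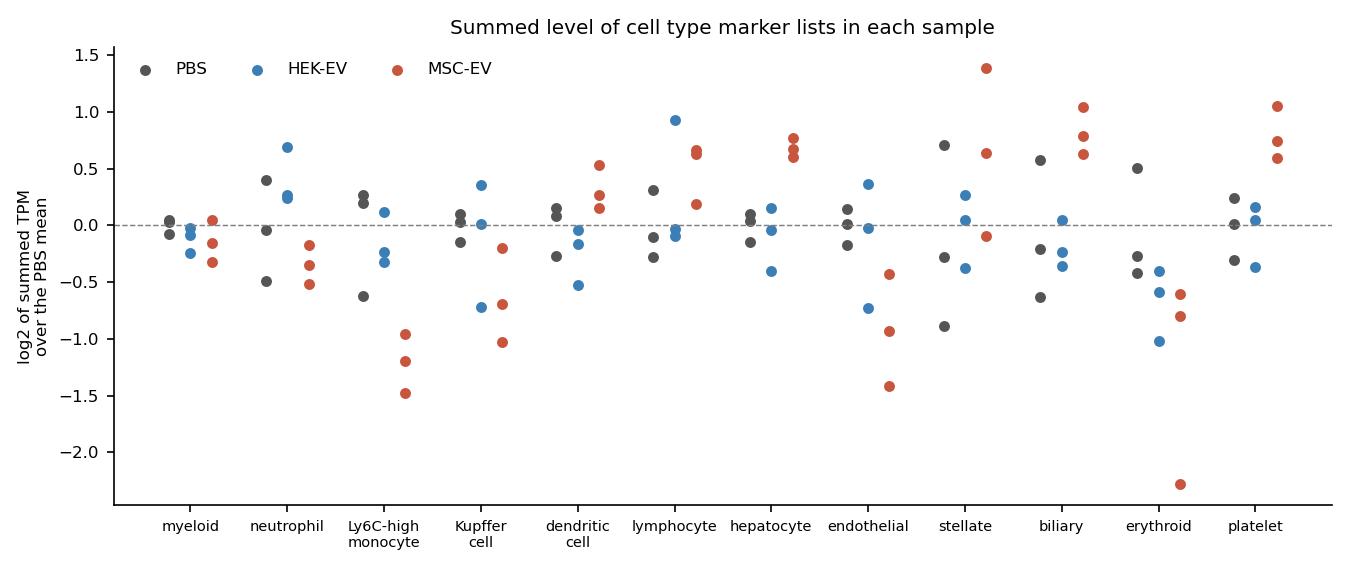
Summed TPM of cell type marker lists in each sample as log2 of the ratio to the PBS mean (vertical axis), with 1 point per sample coloured by group. The Ly6C-high monocyte points of MSC-EV lie below all others, and the hepatocyte, biliary (mostly Spp1) and platelet (mostly Pf4) points of MSC-EV lie above all others.

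The genes that work around SIRP-alpha and SIRP-beta were followed in 7 lists, and none of their genes was called in HEK-EV against PBS. The lists, like the members, were chosen with earlier results of these data known, so their counts are descriptive. Of 14 scaffold proteins and Src family kinases that phosphorylate or bind the SIRP-alpha tail, 6 were called lower in MSC-EV than in PBS and 8 lower than in HEK-EV, and none was called higher. By sign alone, 12 were lower and 2 higher in each comparison. Of all genes, 3.25% were called lower against PBS and 4.40% against HEK-EV, to which the counts of this and the following lists compare. Those counts rest on single samples: without PBS 2 or PBS 3 only 5 or 7 genes of the whole series were called against PBS, and without HEK-EV 2, MSC-EV 1 or MSC-EV 2 none was called against HEK-EV. The median differences of the scaffold and kinase list were -0.29 and -0.35. The Src family kinase Fgr was at 242 ± 32.6 TPM in PBS, 278 ± 16.5 in HEK-EV and 162 ± 11.9 in MSC-EV (SD), a log2 difference of -0.58 against PBS (adjusted p = 0.0238) and -0.78 against HEK-EV (adjusted p = 0.0205). Fyn differed from PBS by -0.58 (adjusted p = 0.0186), and the focal adhesion kinase relative Ptk2b by -0.39 (0.0238), while the adhesion scaffold Pxn differed from HEK-EV by -0.36 (0.0215).

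The next list held inhibitory receptors with tyrosine motifs, grouped here as docking Ptpn6 and Ptpn11 like SIRP-alpha. Which phosphatase each of them docks was not tested. Of 18 measured, 5 were called lower in MSC-EV than in PBS (background 3.25%) and 8 lower than in HEK-EV (4.40%), none was called higher, and the 8 fell to 0 without HEK-EV 2, MSC-EV 1 or MSC-EV 2. By sign, 15 and 16 were lower and 3 and 2 higher, and the medians were -0.35 and -0.48. Ceacam1, an adhesion receptor, was at 138 ± 34.9 TPM in PBS, 132 ± 15.7 in HEK-EV and 61.0 ± 12.3 in MSC-EV (SD), with differences of -1.15 (adjusted p = 0.0231) and -1.11 (0.0225). The inhibitory Fc receptor Fcgr2b differed by -0.53 (adjusted p = 0.0171) and -0.54 (0.0205). Against PBS, Klra2 differed by -0.87 (adjusted p = 0.0238) and Cd72 by -0.60 (0.0268), and against HEK-EV, Pilra differed by -0.95 (0.0216) and Pirb by -0.49 (0.0207). Klra2 and Pirb belong to families of close copies, so their values are uncertain.

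A list of receptors and kinases grouped here around DAP12 included calls in both directions. Whether each of them works with DAP12 in these cells was not tested. Of 14 measured, 5 were called lower (background 3.25% and 4.40%) and 1 higher (1.86% and 1.51%) in each comparison of MSC-EV, and by sign 12 were lower and 2 higher, with medians of -0.25 and -0.37. Lower were Cd300ld, an activating receptor, by -0.45 (adjusted p = 0.0213) and -0.60 (0.0205), the phospholipase Plcg2 by -0.48 (0.0262) and -0.47 (0.0249), and Pilrb2, an activating receptor with close copies, by -0.74 (0.0339) and -0.80 (0.0263). Trem2, a lipid receptor of macrophages that signals through DAP12, rose against PBS by 0.54 (adjusted p = 0.038). It was at 344 ± 63.2 TPM in PBS, 335 ± 27.9 in HEK-EV and 498 ± 34.2 in MSC-EV (SD).

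Of 12 other leukocyte phosphatases, 4 were called lower in MSC-EV than in PBS (background 3.25%) and 6 lower than in HEK-EV (4.40%), none was called higher, and the 6 fell to 0 without HEK-EV 2, MSC-EV 1 or MSC-EV 2. By sign, all 12 were lower than in PBS, and 11 were lower and 1 higher than in HEK-EV, with medians of -0.28 and -0.355. Ptprc, the receptor phosphatase CD45, was at 585 ± 65.9 TPM in PBS, 614 ± 49.5 in HEK-EV and 424 ± 4.85 in MSC-EV (SD), with differences of -0.46 (adjusted p = 0.0271) and -0.53 (0.0207). Ptpn12 differed by -0.42 (adjusted p = 0.03) and -0.52 (0.0207). Ptpro at -0.52 and Ptpre at -0.28 passed against PBS (adjusted p = 0.0328 and 0.0457), and Ptpn1 at -0.42 passed against HEK-EV (0.0234).

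In the lists nearer to the ligands, at most 1 gene was called in each comparison. Among 5 measured partners and modifiers of Cd47, the integrin gene Itgb3 alone was called, at -0.59 against PBS (adjusted p = 0.0251) and -0.56 against HEK-EV (0.0261), 1 of 5 beside 3.25% and 4.40% of all genes called lower, from 3.61 ± 0.18 TPM in PBS to 2.07 ± 0.27 TPM in MSC-EV (SD). Of 8 genes for other signals that restrain phagocytes, Cd200 alone was called, higher by 0.96 against PBS (adjusted p = 0.0376) and by 0.98 against HEK-EV (0.0317), 1 of 8 beside 1.86% and 1.51% of all genes called higher, at 4.41 ± 1.2 TPM in MSC-EV beside 1.79 ± 0.74 TPM in PBS (SD). Of 11 partners of calreticulin and LRP1, none was called against PBS, and the transglutaminase Tgm2 was lower than in HEK-EV by -0.40 (adjusted p = 0.0207). Their medians, in the order named, were 0.020, 0.27 and 0.070 against PBS and -0.027, 0.15 and 0.010 against HEK-EV.

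**Figure D5:**
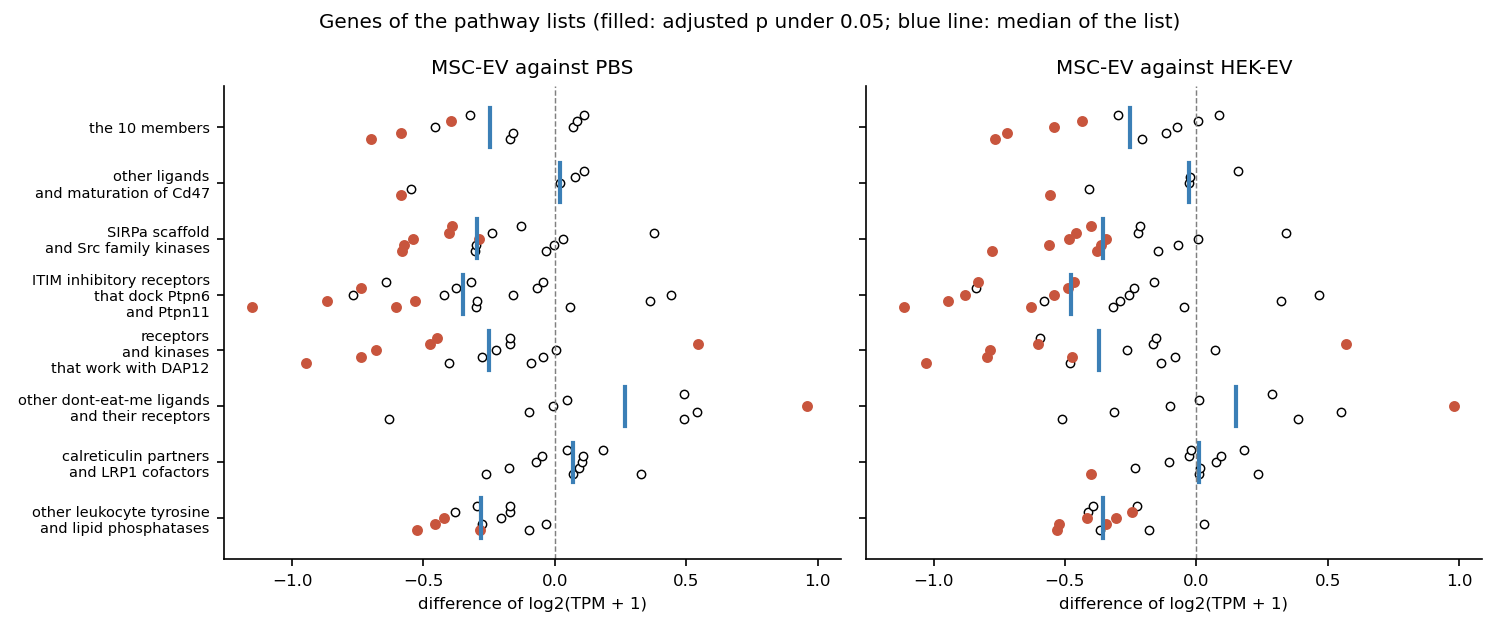
Difference of log2(TPM + 1) in MSC-EV against PBS and against HEK-EV (horizontal axes) for each gene of the members and of 7 pathway lists, with filled points where the adjusted p is under 0.05 and a blue line at the median of the list. The filled points lie left of 0 except Trem2 and Cd200, and the medians of the scaffold, inhibitory receptor, DAP12 and phosphatase lists lie between -0.25 and -0.48.

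The genes whose levels followed each member most closely over the 9 samples were ranked by Pearson r on log2(TPM + 1) among 9686 genes. For Sirpa they were Efr3a (r = 0.962), Zbtb6 (0.953) and Rbm12b1 (0.942). For Sirpb1a they were Sfxn2 (0.989), Clec4a1 (0.985) and Ubac2 (0.985). Sirpb1b was followed by Rap1b (0.994), Stx11 (0.992) and Sirpb1c (0.989), of which the last shares 62.9% of the 50-base runs of Sirpb1b.

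Sirpb1c was followed by Rap1gap2 (0.994) and Il17ra (0.991). Ptpn6 was followed by Ncf4 (0.989), Rab8a (0.988) and Clec4a3 (0.987), Cd47 by Cdc5l (0.974), Pik3cd (0.966) and Gbp9 (0.965), and Ptpn11 by Atf6 (0.986), Dock8 (0.982) and Xiap (0.978). For Calr, Lrp1 and Tyrobp the closest were Zmat3 (0.948), Dnajc16 (0.976) and Gngt2 (0.955). These r describe 9 samples of 3 groups, so the differences between groups enter them, and all values of a sample share its library.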

How the data were processed

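Bulk RNA was sequenced from CD11b+ cells of mouse liver in 9 samples, 3 in each of 3 groups assigned by the treatment in the labels. Libraries were made with a stranded mRNA kit, per the labels' protocols. Reads were processed with HISAT2 2.1.0 and StringTie on mm10, per the submitters' processing notes, and the annotation and any use of strand are not given in the sources used here. TPM, which sum to 1000000 per sample, were deposited by the authors and were the values used. FPKM deposited by the authors served as an alternative. Coverage, a signal column per the file headers, served only for the relative depth.

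The gene name column was blank, so gene IDs were matched to the RefSeq table of GRCm38.p6 (99.79% had a symbol, and 96.4% of positions were equal), and rows of 1 gene were summed. The filter kept genes that reached 1 TPM in 3 or more samples. log2(TPM + 1) was fitted over all 9 samples with limma 3.58.1 in R 4.3.3 (eBayes with trend, two-sided, Benjamini-Hochberg over 13820 genes, threshold 0.05). Fold changes are on the log2(TPM + 1) scale, which understates those of low genes. On simulated data for MSC-EV against PBS, with 13820 genes, limma called 52.5% of genes changed by 0.5, 83.9% by 1 and 97% by 2 on the log2 scale. Ratios were compared with an exact permutation test in scipy 1.17.1. Shared 50-base runs were searched in GENCODE vM21 transcripts on both strands, and start windows are from RefSeq, where 8 of 10 members had one.

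The members and lists were chosen with earlier results of these data known. Named are all 10 members, up to 4 called genes of smallest p per list and comparison, and the 3 genes of highest r per member (at least 5 TPM on average, and 1 of the 3 for Calr, Lrp1 and Tyrobp). Lilrb4b was not matched, and 2 genes that this rule names are not reported here. Alternatives changed the pseudocount (0.1), the filter, unit, scaling, samples, weights, replicate block, depth term and acinar split, and left out each sample.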

Additional observations from a re-analysis of the deposited data

Results flagged for a closer look

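In 4 members the effect of MSC-EV against PBS differed from that of HEK-EV against PBS by a test of the difference itself. PBS is shared by both effects, so the test is that of MSC-EV against HEK-EV in limma. For Sirpb1a the effects were -0.46 and 0.087, and the difference was -0.543 (adjusted p = 0.03). For Sirpb1b they were -0.59 and 0.13, with a difference of -0.719 (adjusted p = 0.0248). For Sirpb1c they were -0.70 and 0.065, with a difference of -0.767 (adjusted p = 0.0207). For Ptpn6 they were -0.39 and 0.040, with a difference of -0.434 (adjusted p = 0.0292). All 3 MSC-EV samples were below all 3 HEK-EV samples in each of these genes. Over all genes, 5.91% were called in this comparison and 30.1% did not overlap. All 4 calls were lost without HEK-EV 1, HEK-EV 2, HEK-EV 3, MSC-EV 1 or MSC-EV 2, at adjusted p-values of 0.0531 to 0.115, and that of Ptpn6 also without MSC-EV 3 (0.0567). The 3 Sirpb1 genes share much of their sequence, so they are not separate observations. Groups of 3 samples were not searched for single outlying samples.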

How the results depend on the processing

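Over 20 alternatives the 3 Sirpb1 genes, Ptpn6, Cd47, Ptpn11 and Tyrobp kept a negative sign in both comparisons of MSC-EV. Many alternatives could not turn it. Changing the filter, keeping only the 6 samples compared or adding the replicate block left the differences as they were. For the 3 Sirpb1 genes, Ptpn6 and Cd47, whose groups did not overlap, leaving out 1 sample could not reverse the sign. Past the threshold against PBS were Sirpb1c in 13, Ptpn6 in 6, Sirpb1a and Sirpb1b in 5 each, Cd47 in 3, and Ptpn11 and Tyrobp in 1 each of the 20. Against HEK-EV these were Sirpb1c in 15, Sirpb1b in 13, Sirpb1a in 11, Ptpn6 in 9, and Cd47, Ptpn11 and Tyrobp in 0. Sirpa passed in none.

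For MSC-EV against PBS, 3 members and 706 genes were called. Members called were 0 without a filter, 1 on FPKM, 1 with median-of-ratios scaling, 1 with quantile normalization, 0 with only the 6 samples compared, 7 with array quality weights, and 0 with the acinar split at 0.002 percent of TPM. Genes called were 361 without a filter, 555 on FPKM, 610 with median-of-ratios scaling and 701 with quantile normalization. They were 77 with only 6 samples, 4163 with weights, 21 with the acinar split and 1339 with depth as a covariate. Leaving out 1 sample gave 0 to 5 members and 5 to 1861 genes, the extremes being without PBS 2 and without PBS 1. For MSC-EV against HEK-EV, with 4 members and 817 genes, members called were 1 without a filter, 1 on FPKM and 2 with median-of-ratios scaling, and genes called were 387, 459 and 512, with 2081 under weights and 1449 with depth. Leaving out 1 sample gave 0 to 4 members and 0 to 1369 genes. For HEK-EV against PBS, 4 genes were called without a filter and 0 to 2 with 1 sample left out, beside 0. The causes were not tested.

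With the replicate number as a replicate block, 1 member and 404 genes were called against PBS and 2 members and 448 genes against HEK-EV. Deviations of same-numbered samples from their group means correlated at -0.499 to 0.058, and 0 of 9 pairs exceeded 0.1. Pairs with different numbers correlated at -0.277 to 0.547, and 7 of 18 exceeded 0.1. With 3 samples a group, these values cannot decide whether same-numbered samples share more than the number.

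Signs turned only in differences that were not called. With array quality weights, Lrp1 against PBS in MSC-EV was -0.0394, and in HEK-EV against PBS Sirpb1a was -0.0731, Sirpb1b -0.0469, Sirpb1c -0.116, Ptpn6 -0.0617 and Ptpn11 -0.0535. With depth as a covariate, in HEK-EV against PBS Sirpb1a was -0.0219, Sirpb1b -0.0951, Sirpb1c -0.133 and Ptpn6 -0.0752, and Lrp1 in MSC-EV against HEK-EV was 0.116. Lrp1 there was 0.0383 with quantile normalization, and Calr in HEK-EV against PBS was -0.00879 with median-of-ratios scaling. With 1 sample left out, HEK-EV against PBS ranged from -0.0155 to 0.179 for Sirpb1a, -0.0524 to 0.233 for Sirpb1b, -0.0983 to 0.153 for Sirpb1c, -0.113 to 0.0364 for Cd47, -0.0548 to 0.0893 for Ptpn6, -0.0114 to 0.1 for Ptpn11, -0.00566 to 0.0717 for Calr and -0.0552 to 0.278 for Lrp1. Lrp1 ranged from -0.13 to 0.203 in MSC-EV against PBS and from -0.175 to 0.00341 against HEK-EV, and Sirpa from -0.0148 to 0.0429 against HEK-EV. Log2 ratios in HEK-EV against PBS ranged from -0.107 to 0.0959 for Ptpn6 to Ptpn11, -0.162 to 0.13 for the Sirpb1 sum to Sirpa, -0.24 to 0.0414 for Sirpa to Itgam and -0.216 to 0.0635 for Calr to Lrp1, and Calr to Lrp1 in MSC-EV against PBS from -0.0968 to 0.224.

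A planned split at 0.001 percent of TPM for acinar transcripts put all samples on the same side and was not run. No interval or limit that needs the depth in reads was given, since the files hold no counts. Where a group kept 2 samples, limma pooled the spread over all groups.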

Other observations

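Within 200000 bases of the Sirpb1 genes on chromosome 3 lie 4 further genes, looked at for their position after the values of the Sirpb1 genes were known. Gm9733 (gene ID 751864, chr3:15295063-15332310, minus strand) was at 186 ± 40.1 TPM in PBS, 174 ± 17.2 TPM in HEK-EV and 96.0 ± 8.76 TPM in MSC-EV (SD, 3 samples each), a log2 difference of -0.93 against PBS (SE 0.15, adjusted p = 0.0213 with limma) and -0.85 against HEK-EV (SE 0.15, adjusted p = 0.0233). Gm5150 (gene ID 381484, chr3:15946871-16006371, minus strand) was at 166 ± 35.6, 192 ± 16.6 and 120.0 ± 10.8 TPM, a difference of -0.45 against PBS that did not pass (adjusted p = 0.103) and of -0.67 against HEK-EV that did (adjusted p = 0.033). Gm6321 was listed at 0 in all samples, and the group means of Gm7343 were at most 0.124 TPM. Neither Gm9733 nor Gm5150 was among the genes that share runs of 50 bases with the coding transcripts of the Sirpb1 genes.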
